A study of Homo sapiens with 22 samples.

Results

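The ATF4 response to amino acid stress was followed through 39 genes in xenografts of H2110, a human lung cancer cell line, under inhibitors of the RAS pathway. The genes were taken from what is known of the response, though earlier results of these data were known when they were chosen. All 39 were found by symbol among the 58735 genes in the table. All 39 also had enough reads to be tested, among 17652 genes tested. They were described in 4 roles, with 12 stress factors, 11 genes of amino acid and one-carbon synthesis, 7 amino acid transporters and 9 genes that charge or export tRNA. RNA was sequenced from 22 tumours in 5 groups, all of wild-type genotype by their label. The 6 Vehicle tumours were compared with 4 tumours each on RMC-7977 at 10 mg/kg, RMC-4550 at 30 mg/kg, Trametinib at 0.3 mg/kg and Cobimetinib at 3 mg/kg. Dosing was oral on 3 consecutive days, from a tumour volume of about 300 mm3. RMC-7977 inhibits active RAS proteins, RMC-4550 inhibits the phosphatase SHP2 that activates RAS, and Trametinib and Cobimetinib inhibit the kinase MEK below RAS. All groups rest on 1 cell line.

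ATF4 is a transcription factor made mainly by regulated translation. When a cell lacks amino acids or its endoplasmic reticulum is overloaded, the kinases GCN2 and PERK phosphorylate the translation factor eIF2. Protein synthesis then falls in general, while upstream reading frames of the ATF4 transcript let its own translation rise. ATF4 binds CCAAT-enhancer and ATF response elements as a dimer with C/EBP family members, and its targets make, import and load amino acids. In tumour cells ATF4 is also reached through mTORC1, a kinase complex that growth factor signalling feeds. The measurements here are of RNA, so ATF4 protein, eIF2 phosphorylation and translation were not measured.

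The libraries held 7761987 to 17265754 counts, and differed in ways that the groups do not account for. Trametinib replicate 4 stood farthest apart, with 24.98% of its counts from ribosomal protein genes and a median correlation of 0.751 with the other tumours, and it was the lowest of all 22 tumours for 21 of the 39 genes. Base composition also separated the tumours. For each library the deviations of all genes from their means were ranked against the GC content of the transcripts. This correlation was below 0 in 7 tumours (1 of 6 Vehicle, 1 of 4 RMC-7977, 1 of 4 RMC-4550, 3 of 4 Trametinib and 1 of 4 Cobimetinib) and above 0 in the other 15, so GC content and Trametinib were partly confounded. Human epithelial markers were plentiful, with a sum of 3048 to 5983 CPM (the counts of a gene scaled to a common library size) over 10 genes, led by keratins and EPCAM, while the surfactant gene SFTPC was at or near 0. Markers of myeloid cells summed to 7.34 to 33.0 CPM and those of red blood cells to at most 0.763 CPM. Endothelial markers summed to 69.8 to 275 CPM, fibroblast markers to 21.4 to 305 CPM and muscle markers to 39.4 to 153 CPM. Of the 8 genes in each of these lists, 6 endothelial, 1 fibroblast and 1 muscle gene had enough reads to be tested. The fibroblast and muscle sums therefore do not by themselves show those cells. With RMC-7977 the endothelial sum was 69.8 to 110 CPM and the myeloid sum 7.34 to 11.2, against 103 to 258 and 11.99 to 27.1 in Vehicle. The 2 sums were 89.9 to 120 and 9.03 to 15.3 with RMC-4550, and 97.0 to 275 and 15.5 to 33.0 with Trametinib. With Cobimetinib they were 119 to 183 and 11.4 to 22.5. The part of these cells in the results was not tested. As the pathway check, DUSP6, a phosphatase gene that ERK signalling switches on, was below every Vehicle tumour in every treated tumour, with log2 fold changes of -3.69 (RMC-7977), -3.52 (RMC-4550), -2.80 (Trametinib) and -1.67 (Cobimetinib). Only the values for RMC-7977 and RMC-4550 passed the edgeR quasi-likelihood test with Benjamini-Hochberg adjustment over all genes (adjusted p = 0.00099 and 0.0191, against 0.0663 and 0.912). The labels number the tumours of a group without saying whether each came from its own mouse, so p-values here reflect the spread among tumours, part of which may be technical. In bulk tumours, fewer cells that hold a transcript and less of it per cell cannot be told apart. The treatment of reads from the host is not given in the sources used here.

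The element through which ATF4 acts can be seen in the promoters of some of these genes. RefSeq promoters (GRCh38.p14, 250 bases before to 50 after each start) were matched for 34 of the 39 genes, and none was matched for NUPR1, PSPH, SHMT2, ALDH1L2 and GPT2. The letters TGATGNAA, the core of the composite C/EBP and ATF site, were searched on both strands. They were found for 12 of 34 genes (35.29%), against 4.479% of 27058 genes with a promoter in the same table. These genes were CHAC1 and CEBPG among the stress factors, ASNS in synthesis, SLC3A2, SLC7A1, SLC1A4 and SLC1A5 in transport, and CARS, AARS, GARS, NARS and MARS in tRNA charging. The cyclic AMP response element TGACGTCA was found in 0 of 34 against 2.24% of all genes, and the E-box CACGTG in 3 of 34 (8.824%, ATF4, SLC7A5 and SLC1A5) against 8.718%. A match of letters is a description and not a site of binding, and the genes were listed partly because ATF4 is known to act on them. The windows around the 6 matches that lie wholly upstream of the start are shown 5′ to 3′ along the strand of the gene, with the match in capitals; where the match is on the other strand the capitals read as its reverse complement.
CHAC1 (chr15:40953236-40953295, plus strand): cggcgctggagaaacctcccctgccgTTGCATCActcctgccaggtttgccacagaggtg
CEBPG (chr19:33374045-33374104, plus strand): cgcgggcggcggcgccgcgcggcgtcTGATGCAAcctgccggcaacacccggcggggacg
ASNS (chr7:97872443-97872502, minus strand): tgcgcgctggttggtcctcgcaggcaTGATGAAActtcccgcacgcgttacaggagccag
SLC1A5 (chr19:46784878-46784937, minus strand): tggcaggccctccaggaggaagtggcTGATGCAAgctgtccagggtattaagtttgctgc
AARS (chr16:70289660-70289719, minus strand): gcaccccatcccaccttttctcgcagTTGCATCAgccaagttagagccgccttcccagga
GARS (chr7:30594819-30594877, plus strand): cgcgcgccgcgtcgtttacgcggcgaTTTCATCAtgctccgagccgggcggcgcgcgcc
The distance from the first base of the match to the start was 209 bases in CHAC1, 42 in CEBPG, 68 in ASNS, 97 in SLC1A5, 187 in AARS and 33 in GARS. The start here is that of the RefSeq promoter. Except in AARS, the window lies inside the span given for the gene with the counts, which begins farther upstream.

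In Vehicle tumours the genes of the response differed widely in level. In RPKM (CPM per kilobase of the deposited gene length) the highest was SLC7A5, with 275. It encodes the light chain of the LAT1 importer of large neutral amino acids. ATF4 itself followed with 203 RPKM, then SLC3A2, the heavy chain of LAT1, with 93.1, and PSAT1, an enzyme of serine synthesis, with 90.7. The lowest were ASNS, the asparagine synthetase, with 1.56 RPKM, CBS, which makes cystathionine from homocysteine, with 1.68, and VLDLR, a lipoprotein receptor, with 1.88. The genes most often used to read out the response were low, with 2.52 RPKM for CHAC1, 3.81 for SESN2 and 7.32 for DDIT3. The SD over the 6 Vehicle tumours on the log2 CPM scale had a median of 0.343 for these genes, against 0.433 for all genes tested.

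**Figure D1:**
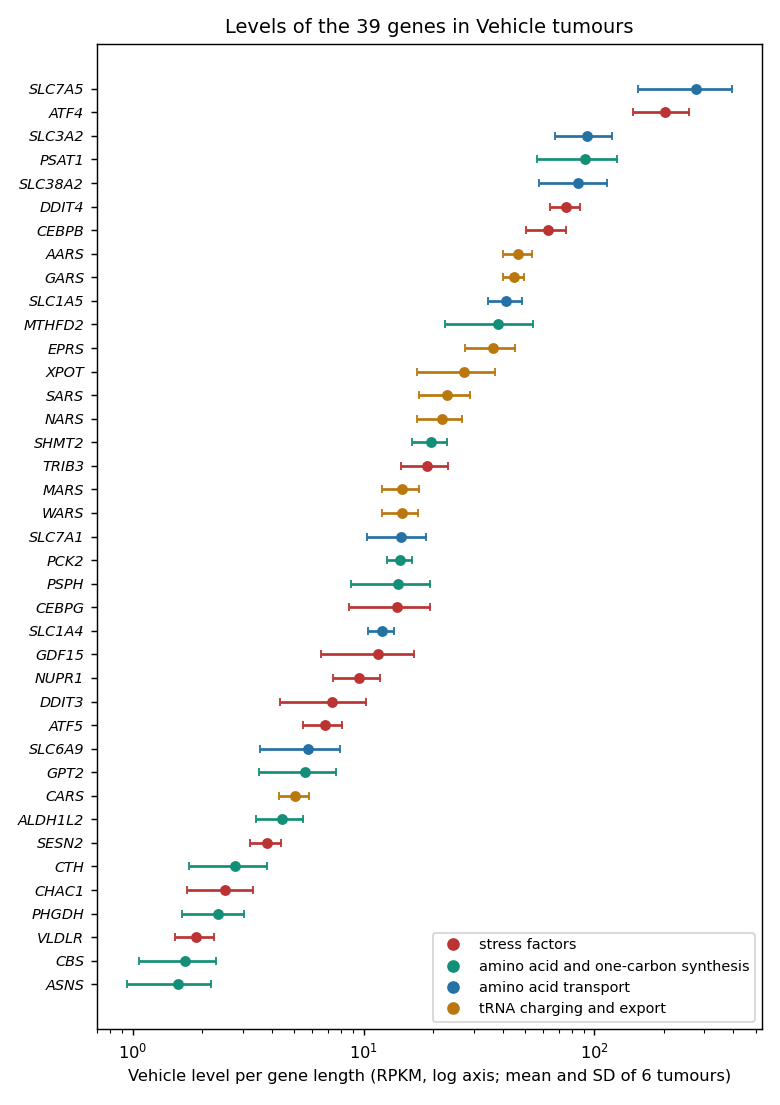
Level of each of the 39 genes in the 6 Vehicle tumours, in RPKM on a log axis, ordered by level and coloured by role; points are means and bars the SD. SLC7A5 (275 RPKM) and ATF4 (203 RPKM) were the most abundant and ASNS (1.56 RPKM) the least.

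No gene of the response passed the test against Vehicle under any drug. With RMC-7977 0 of 39 were called by the edgeR quasi-likelihood test (adjusted p under 0.05), where 0.748% of all genes were, and 2 had an unadjusted p under 0.05 (10.3% of all genes). With RMC-4550 0 were called (0.0283% of all genes), and 1 had an unadjusted p under 0.05 (4.24%). With Trametinib 0 were called (0% of all genes), and 8 had an unadjusted p under 0.05 (18.8% of all genes). Of these 1 was above Vehicle (11.7% of all genes) and 7 were below it (7.17%). Without Trametinib replicate 4 the 8 were reduced to 2, CEBPB and GDF15, both below Vehicle, and the share of all genes to 7.16%. With Cobimetinib 0 were called (0%), and 6 had an unadjusted p under 0.05, 5 above Vehicle (0.986% of all genes) and 1 below (2.31%), where 3.3% of all genes had one in either direction. DESeq2 called 1 gene with RMC-7977 (CEBPB), 1 with Trametinib (GDF15) and 0 with the other 2 drugs. The mean of the 4 drugs against Vehicle gave 0 calls (0.125% of all genes) and 2 with an unadjusted p under 0.05 (6.12%). The test of any difference among the 5 groups gave 0 calls (1.46%) and 7 with an unadjusted p under 0.05 (15.5%). DESeq2 gave 5 calls in it. These percentages are those of the edgeR test, and the share of all genes that DESeq2 called is not given here. Without the 4 libraries that stood apart (Trametinib replicate 4, RMC-7977 replicate 3, Vehicle replicate 1 and RMC-4550 replicate 1) the edgeR quasi-likelihood test called 2 genes with RMC-7977 (CHAC1 and CEBPB, where 6.38% of all genes were called), 0 with RMC-4550 (0.0619%), 5 with Trametinib (GDF15, CEBPB, CEBPG, SLC7A5 and SLC6A9, where 15.1% were) and 1 with Cobimetinib (CHAC1, where 0.045% were).

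As a list, the 39 genes had medians farthest below Vehicle with Trametinib and farthest above it with Cobimetinib. Without the 4 libraries that stood apart the Trametinib median was close to that of RMC-7977, and the Cobimetinib median close to that of RMC-4550. The median log2 fold change was -0.08 with RMC-7977 (17 genes above and 22 below 0, where 49.3% of all genes were above) and 0.04 with RMC-4550 (26 above and 13 below, 49.3% of all genes above, or 0.02 with 23 and 16 when libraries were scaled by RLE). It was -0.23 with Trametinib (10 above and 29 below, 49.6% of all genes above) and 0.11 with Cobimetinib (30 above and 9 below, 48.8% of all genes above). The Trametinib median was -0.15 (11 above and 28 below) without replicate 4 and -0.06 (16 and 23) without the 4 libraries that stood apart. In the tumours with a GC correlation above 0, where Trametinib is replicate 3 alone, it was -0.08 (17 and 22). Without those 4 libraries the medians were -0.07 with RMC-7977, 0.12 with RMC-4550 (31 above and 8 below) and 0.13 with Cobimetinib (26 and 13). The median over all genes tested was -0.01, -0.00, -0.01 and -0.01 in the same order. The mean log2 CPM of the 39 genes was 6.01 ± 0.11 in Vehicle (SD, n = 6), 5.95 ± 0.11 with RMC-7977, 6.07 ± 0.23 with RMC-4550, 5.66 ± 0.46 with Trametinib and 6.21 ± 0.21 with Cobimetinib (SD, n = 4 each). The Trametinib tumours ran from 4.99, in replicate 4, to 5.98. The genes share tumours and libraries, so these counts are a description and not a test.

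**Figure D2:**
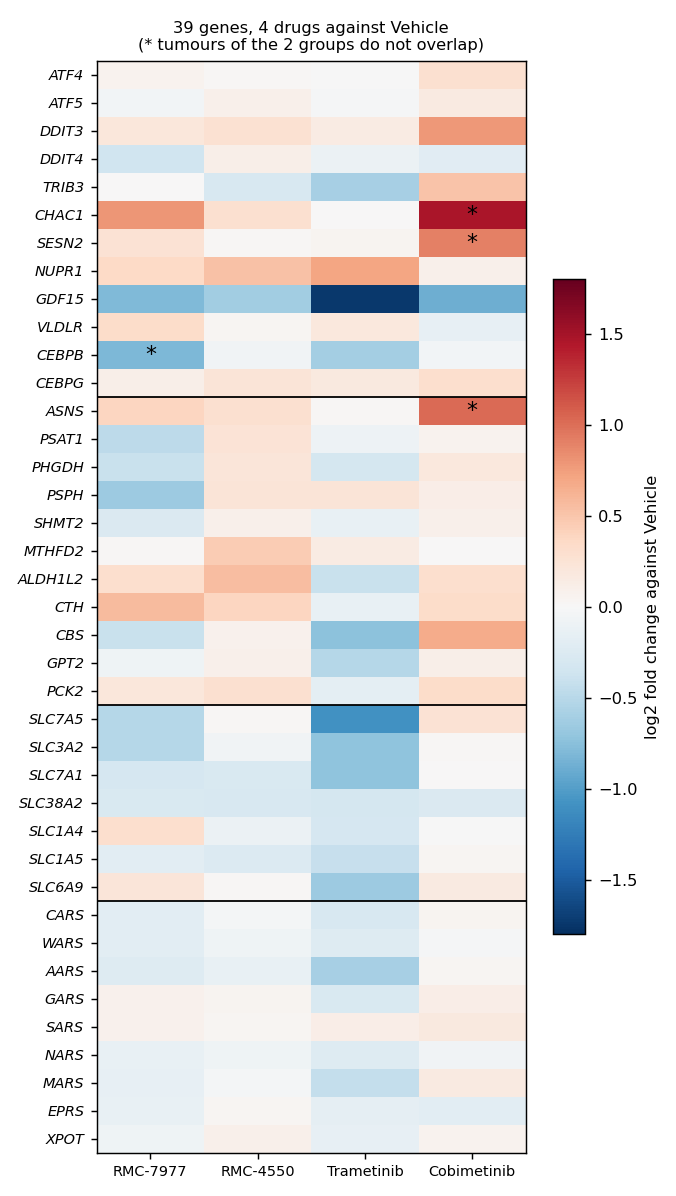
Log2 fold change of each of the 39 genes (listed by role) against Vehicle with each of the 4 drugs, as colour from blue (below Vehicle) to red (above); a star marks a gene whose treated tumours all lay outside the range of the Vehicle tumours. Stars stand at CEBPB with RMC-7977 and at CHAC1, SESN2 and ASNS with Cobimetinib.

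ATF4 RNA was not called with any drug. ATF4 (ENSG00000128272, chromosome 22, 39519695 to 39522685, plus strand, hg38) was at 411 to 782 CPM in Vehicle with a median of 475. The tumours had 533, 476, 655 and 456 CPM with RMC-7977, 589, 458, 540 and 472 with RMC-4550, 587, 478, 462 and 493 with Trametinib, and 619, 525, 730 and 622 with Cobimetinib. All 4 groups overlapped Vehicle, whose replicate 1 was the highest of the 22 tumours, and the Cobimetinib tumours lay in the upper part of the range. The log2 fold changes were 0.06 (95% interval -0.32 to 0.43) with RMC-7977, 0.01 (-0.36 to 0.39) with RMC-4550, -0.01 (-0.39 to 0.36) with Trametinib and 0.29 (-0.08 to 0.67) with Cobimetinib. The first 3 of these values had the other sign under some of the alternatives, by no more than 0.21. The Cobimetinib value was 0.44 (adjusted p = 0.102, edgeR quasi-likelihood test) without the 4 libraries that stood apart, 0.15 with an offset for GC content, and 0.23 to 0.45 when 1 tumour was left out. ATF5, a close relative that is also controlled by translation, lay between -0.05 and 0.16 with the 4 drugs.

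Among the stress factors, DDIT3, CHAC1, SESN2 and TRIB3 had log2 fold changes above 0 with Cobimetinib at an unadjusted p under 0.05, and none was called. The mean log2 CPM of the 12 stress factors was 5.40 to 5.76 in the Cobimetinib tumours and at most 5.37 in Vehicle, a description with no test. CHAC1, SESN2 and TRIB3 are named because of their values, and DDIT3 was always to be named. DDIT3 (ENSG00000175197, chromosome 12, 57516588 to 57521737, minus strand) encodes CHOP, a factor of stress-induced death. It was at 6.84 to 16.7 CPM in Vehicle (median 7.83), and at 18.3, 13.3, 18.6 and 15.3 CPM in the Cobimetinib tumours. Vehicle replicate 1 was the only Vehicle tumour within the Cobimetinib range. With Cobimetinib the log2 fold change was 0.78 ± 0.31 (SE; 95% interval 0.14 to 1.42), with an unadjusted p under 0.05 in the edgeR quasi-likelihood test and no call. It was 1.01 at adjusted p = 0.0507 (edgeR quasi-likelihood test) without the 4 libraries that stood apart, and 0.59 with an unadjusted p above 0.05 in the fit with the replicate block. With the other 3 drugs DDIT3 lay at 0.20, 0.28 and 0.14, and each of these was below 0 in the fit with the replicate block. Of the Vehicle tumours, that fit held only replicates 1, 2 and 3. The 3′ end of DDIT3 overlaps that of MARS on the other strand, and whether the counting used strand is not given in the sources used here.

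CHAC1 (ENSG00000128965, chromosome 15, 40952962 to 40956519, plus strand) encodes an enzyme that breaks down glutathione. It was at 3.85 to 8.41 CPM in Vehicle (median 4.69), at 8.77, 6.73, 10.8 and 9.61 with RMC-7977, and at 17.8, 8.75, 16.1 and 14.5 with Cobimetinib. Every Cobimetinib tumour was above every Vehicle tumour, and RMC-7977 overlapped Vehicle through replicate 2. CHAC1 had 7.40, 5.79, 7.73 and 4.50 CPM with RMC-4550, within the Vehicle range. It had 7.38, 4.43 and 8.47 CPM in Trametinib replicates 1 to 3, and 0 counts in replicate 4, which at that depth allows up to 0.48 CPM (3 counts). The log2 fold change was 1.47 ± 0.47 (SE; 95% interval 0.50 to 2.43) with Cobimetinib, with an unadjusted p under 0.05 in the edgeR quasi-likelihood test and no call. It was 0.79 (-0.18 to 1.77) with RMC-7977. Of 22 fits that left out 1 tumour, 1 called the Cobimetinib value, that without Trametinib replicate 4 (adjusted p = 0.0478, edgeR quasi-likelihood test). Without the 4 libraries that stood apart it was 1.65 with adjusted p = 0.00244. The value with RMC-7977 was then 0.87 with adjusted p = 0.0379. Both were also called in the tumours with a GC correlation above 0 (adjusted p = 0.00572 and 0.0263, edgeR quasi-likelihood test). Neither was called by DESeq2 (adjusted p = 0.184 and 0.41), or by edgeR with only the 2 groups (0.44 and 0.178). The other alternatives, among them the GC offset, RLE scaling and the replicate block, called neither.

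SESN2 (ENSG00000130766, chromosome 1, 28259527 to 28282491, plus strand) encodes sestrin 2, a leucine sensor that restrains mTORC1. It was at 10.2 to 14.8 CPM in Vehicle (median 14.0) and at 30.8, 24.8, 17.7 and 25.3 with Cobimetinib. The 4 Cobimetinib tumours lay above all 6 Vehicle tumours, while the other 3 drugs overlapped Vehicle, between 8.52 and 20.3 CPM. With Cobimetinib SESN2 had a log2 fold change of 0.91 ± 0.23 (SE; 95% interval 0.43 to 1.38), with adjusted p = 0.898 in the edgeR quasi-likelihood test. This value passed the threshold only in the settings that follow, both chosen after seeing the data, and in no fit that left out 1 tumour. With the sign of a library's GC correlation as a term it was 0.94 with adjusted p = 0.0289, the 1 gene of 17652 called in that comparison. With only the 15 tumours whose GC correlation was above 0 it was 1.00 with adjusted p = 0.00583. TRIB3 (ENSG00000101255, chromosome 20, 362835 to 397559, plus strand) encodes a pseudokinase that feeds back on ATF4. It was at 43.9 to 87.3 CPM in Vehicle (median 63.7), at 120, 75.2, 88.3 and 86.8 with Cobimetinib, and at 52.3, 41.9, 49.9 and 27.2 with Trametinib. The Cobimetinib and Trametinib tumours did not overlap each other, and both overlapped Vehicle. The log2 fold change was 0.52 (95% interval 0.06 to 0.98) with Cobimetinib and -0.59 (-1.07 to -0.12) with Trametinib, and neither was called. Of these 12 factors, 3 did not overlap Vehicle in 1 of the drugs, CHAC1 and SESN2 (higher with Cobimetinib, where 0.68% of all genes lay wholly above Vehicle) and CEBPB (lower with RMC-7977, where 1.9% lay wholly below).

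**Figure D3:**
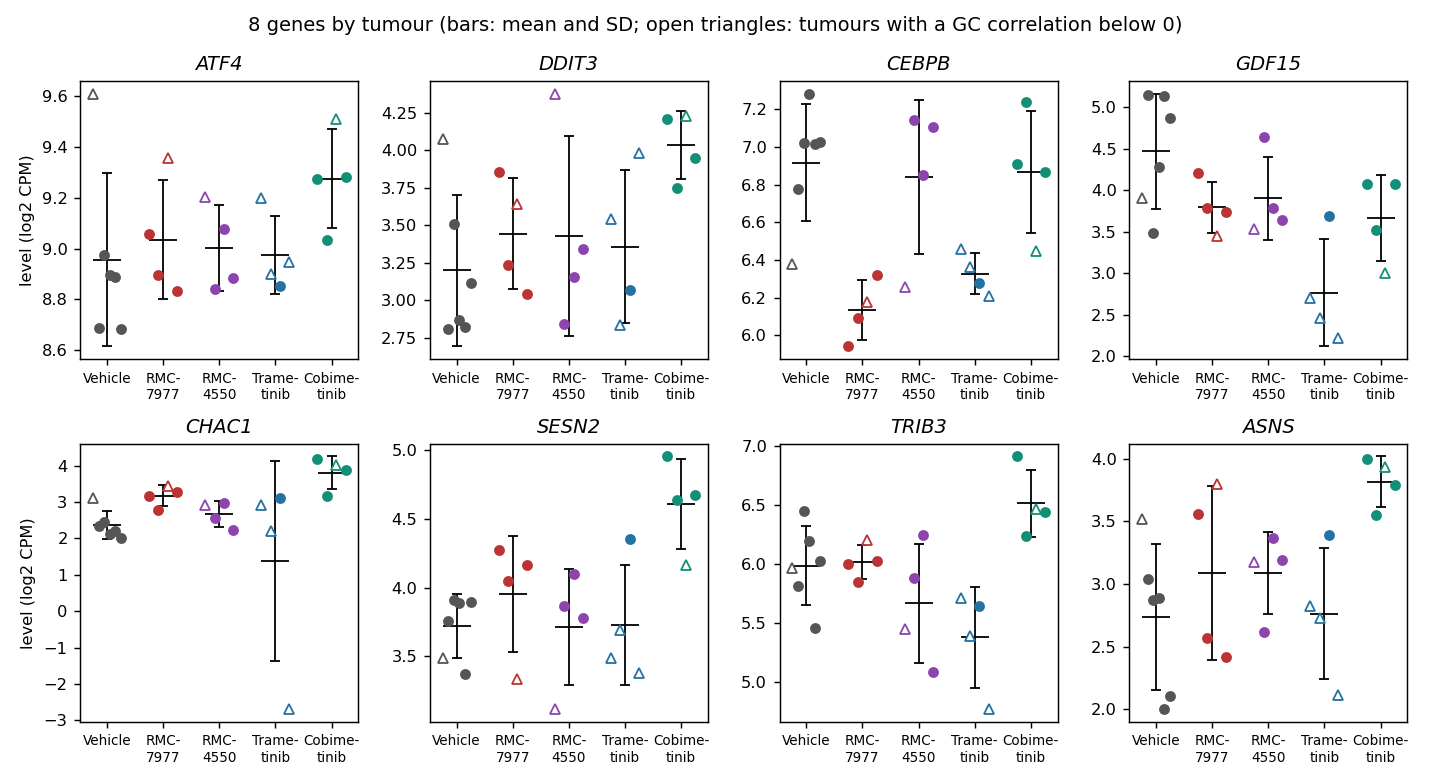
Log2 CPM of 8 genes of the response in each of the 22 tumours, by group; bars are the mean and SD of the group, and open triangles mark the 7 tumours whose GC correlation was below 0. CHAC1, SESN2 and ASNS lie above all Vehicle tumours with Cobimetinib, CEBPB lies below them with RMC-7977, and GDF15 is lowest with Trametinib.

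CEBPB and GDF15 went the other way. CEBPB (ENSG00000172216, chromosome 20, 50190734 to 50192689, plus strand) encodes a bZIP factor that dimerises with ATF4 and is itself a target of ERK signalling. It was at 83.1 to 156 CPM in Vehicle (median 129.5), at 61.3, 68.2, 72.3 and 79.9 with RMC-7977, and at 87.9, 82.1, 77.4 and 73.8 with Trametinib. All RMC-7977 tumours lay below all Vehicle tumours, and 3 of the 4 Trametinib tumours did. With RMC-4550 CEBPB had 76.4, 141, 115 and 138 CPM, and with Cobimetinib 120, 151, 87.2 and 117, both across the Vehicle range. The log2 fold change was -0.80 ± 0.19 (SE; 95% interval -1.21 to -0.40) with RMC-7977, at adjusted p = 0.0526 in the edgeR quasi-likelihood test. With Trametinib it was -0.61 (-1.01 to -0.21), at adjusted p = 0.12. The RMC-7977 value passed the threshold in 6 of 11 alternatives other than leaving out 1 tumour. These were DESeq2 (adjusted p = 0.0048), the newer quasi-likelihood method of edgeR (0.0438), the fits without 2 (0.0484) and without 4 (-0.93, 0.00164) of the libraries that stood apart, the GC term (-0.75, 0.0147) and the tumours with a GC correlation above 0 (-0.92, 0.000405). It did not pass in the edgeR quasi-likelihood test with the GC offset (-0.65, adjusted p = 0.124), no filter on low counts (0.163), RLE scaling (0.0513), the replicate block (-0.64, 0.833) or only the 2 groups (0.0709). Of 22 fits that left out 1 tumour it passed in 5, without Vehicle replicate 1 (adjusted p = 0.0166, edgeR quasi-likelihood test), Vehicle replicate 2 (0.0432), RMC-4550 replicate 1 (0.0257), Trametinib replicate 4 (0.0246) or Cobimetinib replicate 3 (0.0486), and in the others the adjusted p reached 0.207. The Trametinib value passed in 1 of the 11 alternatives, at -0.69 with adjusted p = 0.0111 (edgeR quasi-likelihood test) without the 4 libraries that stood apart, and in 1 of the 22 leave-outs, at -0.70 with 0.047 without Vehicle replicate 1. Without Trametinib replicate 4 it was -0.61 at adjusted p = 0.669 (edgeR quasi-likelihood test), and with the GC term -0.37. With the GC offset it was 0.04, so the direction with Trametinib depended on that correction, and CEBPB has the highest GC content named here, 66.2%. CEBPG, another dimer partner of ATF4, lay between 0.10 and 0.30 with the 4 drugs.

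GDF15 (ENSG00000130513, chromosome 19, 18374731 to 18389176, plus strand) encodes a secreted stress cytokine. It was at 11.05 to 35.4 CPM in Vehicle (median 24.2). It was at 18.3, 13.6, 10.8 and 13.1 with RMC-7977, 11.4, 24.8, 13.6 and 12.3 with RMC-4550, 6.33, 5.32, 12.7 and 4.48 with Trametinib, and 16.7, 11.3, 7.82 and 16.7 with Cobimetinib. Apart from RMC-4550 replicate 2, the treated tumours lay below the Vehicle median, and 3 of 4 Trametinib tumours lay below every Vehicle tumour. The log2 fold change was -0.79 (95% interval -1.52 to -0.06) with RMC-7977, -0.63 (-1.35 to 0.09) with RMC-4550, -1.73 ± 0.37 (SE; -2.50 to -0.96) with Trametinib and -0.88 (-1.61 to -0.15) with Cobimetinib. The Trametinib value had adjusted p = 0.0819 in the edgeR quasi-likelihood test, and the mean over the 4 drugs, -1.01 ± 0.24, had adjusted p = 0.177. The 4 drug values share the same Vehicle tumours. The Trametinib value passed in 3 of 11 alternatives other than leaving out 1 tumour, DESeq2 (adjusted p = 0.00302), the newer quasi-likelihood method of edgeR (0.0484) and the fit without the 4 libraries that stood apart (-1.70, 0.015). It did not pass in the edgeR quasi-likelihood test with the GC offset (-1.28, adjusted p = 0.0523) or with the GC term (-1.33, 0.604). In the tumours with a GC correlation above 0, where Trametinib is replicate 3 alone, it was -1.04. Of 22 fits that left out 1 tumour it passed in 4, without Vehicle replicate 1 (adjusted p = 0.047, edgeR quasi-likelihood test) or Trametinib replicate 1 (0.0382), 2 (0.0377) or 3 (0.0121, at -2.14). Without Trametinib replicate 4 it was -1.61 at adjusted p = 0.515 (edgeR quasi-likelihood test). Of the other stress factors, NUPR1, a small stress-induced chromatin protein, was at 63.8, 63.1, 60.9 and 168 CPM with Trametinib against 37.6 to 71.4 in Vehicle, with a log2 fold change of 0.71, which was 0.17 without replicate 4. DDIT4, an inhibitor of mTORC1, lay between -0.35 and 0.10, and VLDLR between -0.15 and 0.33.

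The enzymes that make serine, glycine, asparagine and one-carbon units lay above Vehicle as a list with RMC-4550 and Cobimetinib. All 11 had a log2 fold change above 0 with each of these drugs, with medians of 0.25 and 0.19. Leaving out 1 tumour left as few as 6 of 11 above 0. The medians then ran from 0.04 (without RMC-4550 replicate 3) to 0.46 with RMC-4550 and from 0.05 (without Cobimetinib replicate 1) to 0.34 with Cobimetinib, both highest without Vehicle replicate 1. With RMC-7977 the median was -0.08 (5 above and 6 below) and with Trametinib -0.14 (3 above and 8 below), or -0.18 to -0.05 and -0.23 to -0.05 when 1 tumour was left out. By the test, 1 of the 11 had an unadjusted p under 0.05 with RMC-4550 and 1 with Cobimetinib, and 0 were called in either. ASNS (ENSG00000070669, chromosome 7, 97852118 to 97872542, minus strand), which makes asparagine and carries the promoter element shown above, was at 3.85 to 11.3 CPM in Vehicle (median 7.21) and at 15.8, 11.5, 15.2 and 13.7 with Cobimetinib. All Cobimetinib tumours were above all Vehicle tumours, the nearest pair being 11.5 and 11.3. ASNS had 11.6, 5.78, 13.8 and 5.19 CPM with RMC-7977, 8.86, 5.99, 10.2 and 8.999 with RMC-4550, and 6.93, 6.47, 10.3 and 4.16 with Trametinib. Cobimetinib gave a log2 fold change of 1.01 ± 0.31 (SE; 95% interval 0.36 to 1.66), with an unadjusted p under 0.05 in the edgeR quasi-likelihood test and no call. With the other drugs it was 0.38, 0.29 and 0.01. Over all 12 genes with the promoter element the median with Cobimetinib was 0.045, against 0.16 for the 22 matched genes without it, a description with no test.

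ALDH1L2 (ENSG00000136010, chromosome 12, 105019784 to 105084577, minus strand) encodes a mitochondrial enzyme that oxidises formyl-tetrahydrofolate. It was at 25.7 to 44.7 CPM in Vehicle (median 41.5), at 41.5, 58.6, 83.4 and 38.7 with RMC-4550, and at 32.6, 35.4, 34.4 and 10.9 with Trametinib. The RMC-4550 tumours ran from within the Vehicle range to well above it, and lay above all Trametinib tumours. ALDH1L2 had a log2 fold change of 0.56 (95% interval 0.01 to 1.11) with RMC-4550, 0.31 with RMC-7977, -0.41 with Trametinib and 0.31 with Cobimetinib, and none was called. The RMC-4550 value was as low as 0.28 when 1 tumour was left out, and the Trametinib value was -0.18 without replicate 4. The 3 enzymes of serine synthesis, PHGDH, PSAT1 and PSPH, lay at -0.40, -0.47 and -0.66 with RMC-7977 and at 0.21, 0.25 and 0.24 with RMC-4550, and none of these 6 values was called. PSPH had 25.2, 19.2, 32.3 and 22.1 CPM with RMC-7977 against 25.8 to 66.5 in Vehicle, and its pseudogene PSPHP1 held 222 to 709 counts a library, so reads could be shared between them. The folate enzymes MTHFD2 and SHMT2 lay at 0.46 and 0.10 with RMC-4550 and between -0.26 and 0.15 with the other drugs. CBS and CTH, which turn homocysteine into cysteine, had 0.32 and 2.24 CPM in Trametinib replicate 4, the lowest of all tumours, and CBS shares sequence with the copy CBSL (6 to 101 counts). PCK2, mitochondrial PEP carboxykinase, and GPT2, which makes alanine, lay between -0.52 and 0.33.

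The amino acid transporters had the lowest values with Trametinib. All 7 had a log2 fold change below 0 there, with a median of -0.65, against -0.27 (2 above and 5 below) with RMC-7977, -0.10 (2 and 5) with RMC-4550 and 0.02 (5 and 2) with Cobimetinib. When 1 tumour was left out the medians ran from -0.36 to -0.16, -0.31 to 0.10 and -0.12 to 0.19 with these 3 drugs. With Trametinib the count stayed at 7 of 7 when any 1 tumour was left out, with medians of -0.89 to -0.42, the latter without Trametinib replicate 4. The median was -0.53 without the 4 libraries that stood apart. With the GC offset it was -0.45 (1 above and 6 below) and with the GC term -0.19 (3 above and 4 below). In the tumours with a GC correlation above 0, where Trametinib is replicate 3 alone, it was -0.15 (1 above and 6 below). None of the 7 was called, and 2 had an unadjusted p under 0.05. SLC7A5 (ENSG00000103257, chromosome 16, 87830023 to 87869488, minus strand) was at 385 to 2013 CPM in Vehicle (median 1431). It was at 847, 969, 635 and 1215 with RMC-7977, 434, 1652, 2110.5 and 1117 with RMC-4550, 645, 580, 1109 and 116 with Trametinib, and 2287, 1584, 849 and 1523 with Cobimetinib. The Trametinib tumours lay in the lower part of the Vehicle range, with replicate 4 under it. Trametinib gave a log2 fold change of -1.09 ± 0.50 (SE; 95% interval -2.12 to -0.06), at adjusted p = 0.248 in the edgeR quasi-likelihood test. It was -0.96 with adjusted p = 0.0454 without the 4 libraries that stood apart, -0.70 with the GC offset and -0.31 with the GC term. With the other drugs SLC7A5 lay at -0.51, 0.03 and 0.26.

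SLC3A2 (ENSG00000168003, chromosome 11, 62856102 to 62888875, plus strand), whose protein pairs with that of SLC7A5, was at 300 to 703 CPM in Vehicle (median 471), at 340, 327, 301 and 379 with RMC-7977, and at 324, 302, 386 and 151 with Trametinib. Both groups sat at the low end of the Vehicle range, and Trametinib replicate 4 lay under it. SLC3A2 had 250, 548, 643 and 409 CPM with RMC-4550, and 671, 496, 329 and 455 with Cobimetinib. SLC3A2 had a log2 fold change of -0.73 (95% interval -1.31 to -0.15; adjusted p = 0.183, edgeR quasi-likelihood test) with Trametinib, -0.52 (-1.10 to 0.06) with RMC-7977, -0.06 with RMC-4550 and 0.02 with Cobimetinib. The cationic amino acid importer SLC7A1, the glutamine carrier SLC1A5 and the glycine transporter SLC6A9 lay at -0.73, -0.41 and -0.65 with Trametinib, and at -0.42, -0.35 and -0.52 without replicate 4. SLC38A2, the amino acid carrier SNAT2, varied from 381 to 822 CPM in Vehicle but only from 454 to 475 with RMC-7977. SLC1A4, a carrier of alanine and serine, lay at 0.30 with RMC-7977 and -0.31 with Trametinib, or -0.07 without replicate 4.

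**Figure D4:**
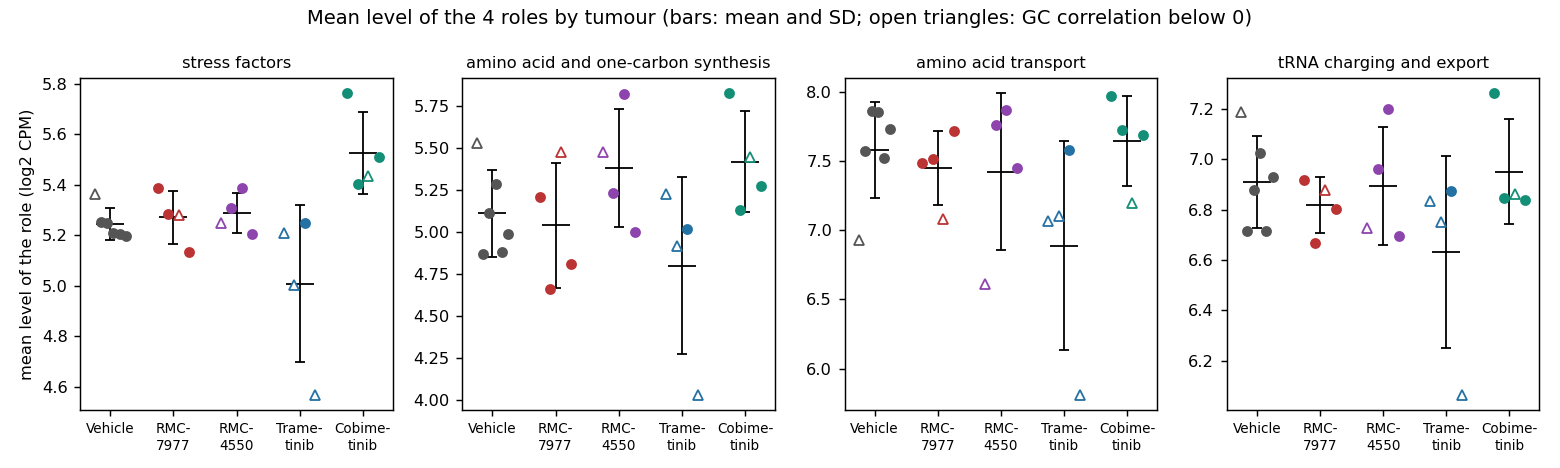
Mean log2 CPM of the genes of each of the 4 roles in each tumour, by group; bars are the mean and SD of the group, and open triangles mark the 7 tumours whose GC correlation was below 0. Trametinib replicate 4 is the lowest of all tumours in the tRNA genes (6.06) and Cobimetinib replicate 1 stands above its group (7.26).

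The synthetases that charge tRNA, and the tRNA exporter XPOT, showed small differences. Their median log2 fold change was -0.13 (2 above and 7 below) with RMC-7977, -0.04 (4 and 5) with RMC-4550, -0.24 (1 and 8) with Trametinib and 0.05 (6 and 3) with Cobimetinib. When 1 tumour was left out the medians ran from -0.18 to 0.0033 (without Vehicle replicate 1) with RMC-7977, -0.15 to 0.06 with RMC-4550, -0.34 to -0.10 (without Trametinib replicate 4) with Trametinib and -0.05 to 0.13 with Cobimetinib. Without Cobimetinib replicate 1 only 1 of the 9 lay above 0 with Cobimetinib. None was called, and 2 had an unadjusted p under 0.05, both with Trametinib. MARS (ENSG00000166986, chromosome 12, 57475445 to 57517569, plus strand), the methionine synthetase, was at 69.6 to 126 CPM in Vehicle (median 105) and at 67.2, 77.4, 100 and 62.4 with Trametinib. It had 108, 78.1, 90.3 and 95.03 CPM with RMC-7977, 79.7, 102, 121 and 98.8 with RMC-4550, and 154, 108, 99.8 and 100 with Cobimetinib. All 4 groups overlapped Vehicle, whose replicate 1 was low. Trametinib gave a log2 fold change of -0.43 (95% interval -0.82 to -0.04), at adjusted p = 0.229 in the edgeR quasi-likelihood test. It was -0.22 with the GC offset and -0.20 with the GC term. In the tumours with a GC correlation above 0, where Trametinib is replicate 3 alone, it was -0.14. AARS (ENSG00000090861, chromosome 16, 70252295 to 70289543, minus strand), the alanine synthetase, was at 181 to 256 CPM in Vehicle (median 208) and at 138, 142, 197 and 81.0 with Trametinib. It had 207, 165, 130.5 and 217 CPM with RMC-7977, 121, 232, 244 and 175 with RMC-4550, and 306, 214, 149 and 198 with Cobimetinib. Only Trametinib had 3 of its 4 tumours below all Vehicle tumours, with a log2 fold change of -0.60 (-1.10 to -0.09), at adjusted p = 0.21 in the edgeR quasi-likelihood test. The same 3 settings gave -0.44, -0.28 and -0.14. The other 7 genes of this role lay between -0.29 and 0.17 with every drug. GARS reads could be shared with the divergent transcript GARS-DT, which held 249 to 1182 counts a library.

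Direct comparisons of the drugs, 6 pairs in all, also gave 0 calls among the 39 genes in each pair by the edgeR quasi-likelihood test. The doses differed between compounds, so the differences hold at these doses. Trametinib and Cobimetinib, which share their target, lay farthest apart. Of the 39 genes 33 were lower with Trametinib (47.3% of all genes), with a median log2 difference of -0.44 against 0.03 over all genes. Of the genes 0 were called (0% of all genes) and 13 had an unadjusted p under 0.05 (16.7% of all genes). All 13 were lower with Trametinib (6.58% of all genes in that direction). DESeq2 called 1 gene, TRIB3, with its share of all genes not given here. The medians by role were -0.74 for transport (0 above and 7 below), -0.51 for synthesis (2 and 9), -0.43 for the stress factors (3 and 9) and -0.22 for the tRNA genes (1 and 8). Leaving out 1 tumour gave -0.93 to -0.44 for transport, the latter without Trametinib replicate 4, and -0.69 to -0.26 for synthesis. Every Trametinib tumour was below every Cobimetinib tumour for TRIB3, CHAC1, ASNS, ALDH1L2, CBS and PCK2, 6 of 39, where this held for 4.45% of all genes. TRIB3 had the smallest p, with a log2 difference of -1.11 ± 0.25 (SE; 95% interval -1.63 to -0.59) at adjusted p = 0.183 in the edgeR quasi-likelihood test. DESeq2 gave adjusted p = 0.00799 for it, and the fit without the 4 libraries that stood apart gave -0.96 at 0.037. That fit called 4 of the 39 genes in this pair, TRIB3, CHAC1, SESN2 and DDIT3, where 3.02% of all genes were called. With the GC offset it was -0.59 at adjusted p = 0.279, so the size depended on that correction. SESN2 differed by -0.86 (-1.39 to -0.32) and CHAC1 by -1.46 (-2.55 to -0.37), while DDIT3 had no unadjusted p under 0.05 in this pair. Without Trametinib replicate 4 the median was -0.32 (5 above and 34 below), and 10 genes had an unadjusted p under 0.05, all lower with Trametinib (9.17% of all genes in either direction).

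The other 5 pairs gave 4 to 6 genes with an unadjusted p under 0.05 and none called. RMC-7977 against RMC-4550 gave 4, all lower with RMC-7977 (4.34% of all genes, 7.39% in either direction, and 0.0906% called). They were CEBPB (-0.74, 95% interval -1.17 to -0.31), PSPH (-0.90), PSAT1 (-0.72) and SHMT2 (-0.36). Without the 4 libraries that stood apart CEBPB was called in this pair (-0.92, adjusted p = 0.0111, edgeR quasi-likelihood test, where 1.08% of all genes were called) and against Cobimetinib (-0.78, adjusted p = 0.00908, 3.79%). RMC-7977 against Cobimetinib gave 4 (7.45%, with 0.278% called), 3 of them lower with RMC-7977 (3.16%), and both CEBPB (-0.75, 95% interval -1.19 to -0.32) and TRIB3 lay wholly below Cobimetinib, as 4.73% of all genes did. RMC-4550 against Cobimetinib gave 4 (6.2%, with 0.0283% called), all lower with RMC-4550 (1.95%). There CHAC1 (-1.17), SESN2 (-0.88) and ASNS (-0.73) lay wholly below Cobimetinib, as 3.9% of all genes did. RMC-7977 against Trametinib gave 5 (18.2%, with 0.408% called), 4 of them higher with RMC-7977 (6.04%), and TRIB3 and PCK2 lay wholly above Trametinib (3.22% of all genes). RMC-4550 against Trametinib gave 6, all higher with RMC-4550 (3.91%, with 12.3% in either direction and 0% called), among them GDF15 (1.10) and ALDH1L2 (0.97), and ALDH1L2 lay wholly above Trametinib (2.26% of all genes).

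SLC7A1, SLC1A5 and SLC6A9 were lower in all 7 tumours with a GC correlation below 0 than in all 15 others, 3 of 39 genes (7.69%), close to the 5.36% of all genes tested. None of the 39 was higher in all 7 (2.29% of all genes). SLC7A5 was at 116 to 849 CPM in the 7 tumours and 847 to 2287 in the 15, and GDF15 at 4.48 to 14.8 against 11.05 to 35.4. Trametinib holds 3 of the 7 tumours, and the part of base composition in its values was not tested beyond the fits given above. GC content was 66.2% in CEBPB, 62.9% in GDF15 and 61.1% in SLC7A5, against 47.0% in ASNS and 42.1% in ALDH1L2. ATF4 (56.7% GC) and CHAC1 (62.6%) went the other way, with medians in the 7 tumours 1.24 and 1.10 times those in the 15.

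**Figure D5:**
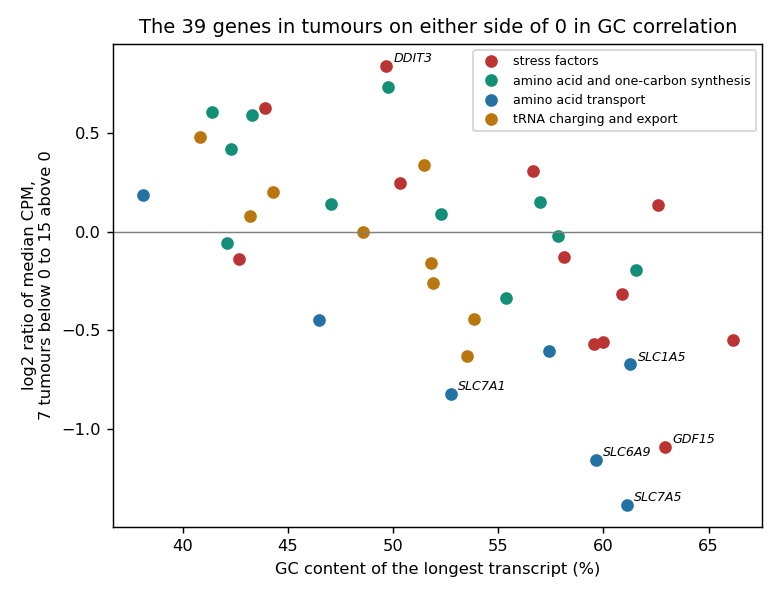
For each of the 39 genes, the GC content of its longest transcript (percent) against the log2 ratio of the median CPM in the 7 tumours with a GC correlation below 0 to that in the 15 others, coloured by role. SLC7A5, GDF15 and SLC6A9, above 55% GC, lie among the lowest ratios.

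The genes upstream of ATF4 gave no call against Vehicle. Of 24 genes of eIF2, its kinases and its phosphatase 0 were called with any drug, and 3, 1, 2 and 0 had an unadjusted p under 0.05 with RMC-7977, RMC-4550, Trametinib and Cobimetinib, beside 10.3%, 4.24%, 18.8% and 3.3% of all genes. The 3 with RMC-7977 were all higher (4.87% of all genes). EIF2AK3, which encodes PERK, was at 11.9 to 24.0 CPM in Vehicle and 28.5 to 35.3 with RMC-7977, with no overlap (2.23% of all genes lay wholly above) and a log2 fold change of 0.72 ± 0.33 (SE) at adjusted p = 0.439 in the edgeR quasi-likelihood test. EIF2AK1, the haem-regulated kinase, was at 267 to 429 CPM in Vehicle and 445 to 533 with RMC-7977, also with no overlap, at 0.43 ± 0.20 (SE). EIF2AK4, which encodes the amino acid sensor GCN2, lay between 0.04 and 0.27 with the 4 drugs, and EIF2AK2, the kinase PKR, between 0.05 and 0.35. PPP1R15A, the inducible subunit GADD34 that reverses eIF2 phosphorylation, lay at -0.69 with Trametinib (95% interval -1.27 to -0.11) and between -0.07 and 0.16 with the others.

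Of 30 further targets of ATF4 outside the 39 genes, 24 could be tested and 1 was called higher than Vehicle. HERPUD1, which encodes a membrane protein that helps to clear misfolded proteins from the endoplasmic reticulum, was at 28.6 to 48.8 CPM in Vehicle and 61.2 to 75.9 with RMC-7977, with no overlap (2.23% of all genes). Its log2 fold change was 0.96 ± 0.20 (SE) with RMC-7977 at adjusted p = 0.0234 in the edgeR quasi-likelihood test (0.748% of all genes called), and 1.11 at adjusted p = 0.0328 for RMC-7977 against Trametinib (0.408%). The call against Vehicle was lost in 7 of 22 fits that left out 1 tumour (each RMC-7977 tumour, and Vehicle replicates 5, 6 and 7), at log2 fold changes of 0.89 to 1.00, and in the fits with no filter on low counts and with the replicate block (adjusted p = 0.0907 and 0.722). The call against Trametinib was lost in 5 of 11 alternatives and in 5 of 22 leave-outs. The value was lowest, 0.65, in the tumours with a GC correlation above 0, where Trametinib is replicate 3 alone. ATF3, a stress-induced bZIP factor, passed the test of any difference among the 5 groups (adjusted p = 0.0448, edgeR quasi-likelihood test, with 1.46% of all genes called). Its level was 53.7 ± 8.13 CPM in Vehicle (SD, n = 6) and 99.0 ± 36.1 with RMC-4550 (SD, n = 4). That test does not say which groups differ, and the levels with the other drugs are not given here. ATF3 kept this call in 7 of 22 fits that left out 1 tumour, and lost it in 3 of 10 other alternatives. In 24 genes of the ATF6 and XBP1 arms of the unfolded protein response 0 were called against Vehicle, and XBP1 itself was higher with RMC-7977 than with Cobimetinib (log2 difference 1.06, adjusted p = 0.0363, edgeR quasi-likelihood test; 0.278% of all genes called). Its means were 942 and 451 CPM, and this call was lost in 7 of 22 fits that left out 1 tumour and in 2 of 11 other alternatives. Among 12 other cytosolic synthetases, 17 mitochondrial synthetases and 25 tested genes of mTORC1 and its amino acid sensors 0 were called against Vehicle by the edgeR quasi-likelihood test, with at most 6 genes of a list at an unadjusted p under 0.05, those 6 of the 25 mTORC1 genes with Trametinib (18.8% of all genes).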

How the data were processed

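RNA was sequenced from 22 H2110 xenograft tumours in strand-specific libraries of total RNA. The authors deposited raw counts of reads per gene, whole numbers for 58735 genes in 1 column a tumour. The submitters' processing notes name HISAT2 (2.0.5) with hg38 and featureCounts (1.5.0-p3), beside fastp, edgeR (3.22.5) and DESeq2 (1.20.0). How featureCounts was set for strand or for reads with several matches, and whether mouse reads were taken out first, is not given in the sources used here. Library totals ran from 7761987 to 17265754 counts, and no molecular identifiers are named.

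Counts were analysed in R (4.3.3) with edgeR (4.0.16). Its filter on low counts (minimum 10) left 17652 genes, which hold 99.7% of all counts. After TMM scaling of the libraries a robust quasi-likelihood model with 1 mean per group was fitted to all 22 tumours. The biological coefficient of variation was 0.368. F-tests, 2-sided, compared each drug with Vehicle, each pair of drugs, the mean of the drugs with Vehicle, and all 5 groups, 12 comparisons in all, with p-values adjusted by Benjamini-Hochberg across all tested genes and called below 0.05. CPM used TMM library sizes, log2 CPM a prior count of 2, and RPKM the deposited gene lengths. Intervals cover 95%. The code was tested on simulated data.

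The older of the 2 quasi-likelihood methods of edgeR was used, because earlier results of these data had been made with it; both were run before the choice was settled, and the newer method calls 179, 7, 40 and 0 of all genes for RMC-7977, RMC-4550, Trametinib and Cobimetinib against Vehicle, where the older calls 132, 5, 0 and 0. The genes and the lists were chosen with earlier results of these data known. Per-tumour values are given for ATF4, DDIT3, ASNS, any gene past the threshold, and the 2 genes of each role with the smallest p among the 5 groups, which are CEBPB, GDF15, ASNS, ALDH1L2, SLC3A2, SLC7A5, MARS and AARS. CHAC1, SESN2, TRIB3 and other genes given with their values were named after these were seen.

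Alternatives were DESeq2 (1.42.0), RLE scaling, no filter, the replicate number as a block, an offset for GC content, only the 2 groups compared, leaving out the libraries that stood apart, and leaving out each tumour. Chosen after seeing the data were the newer quasi-likelihood method, the sign of the GC correlation as a term, and only tumours where it is above 0. Same-numbered tumours deviated together from their group means, with every correlation above 0.1, in Vehicle and Trametinib (0.136 to 0.202) and in Vehicle and RMC-4550 (0.17 to 0.711), and for no other pair of groups. What a number stands for is not in the labels.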

Additional observations from a re-analysis of the deposited data

Results flagged for a closer look

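Single tumours that lay far from their group (a gap to the nearest other tumour, over the range of the group, above the 95% limit of Dixon's test) gave 9 results. These are 9 of 75 sets tested, 5 groups for each of the 10 genes named by rule, the mean of all 39 genes and the means of the 4 roles, and chance gives about 1 in 20. Vehicle replicate 1 was high for ATF4 (782 CPM against at most 504 in the other 5 Vehicle tumours) and for the mean log2 CPM of the stress factors (5.37). It was low for MARS (69.6 CPM) and for the mean log2 CPM of the transporters (6.93). Trametinib replicate 4 was low for ALDH1L2 (10.9 CPM) and for the mean log2 CPM of the tRNA genes (6.06). Cobimetinib replicate 1 was high for the mean log2 CPM of all 39 genes (6.52) and of the tRNA genes (7.26). In RMC-7977, ALDH1L2 was low in replicate 2 (34.6 CPM). Over all 39 genes and 5 groups, 20 of 195 values lay this far, 8 of them in Trametinib replicate 4 and 5 in Vehicle replicate 1. The GC correlation was below 0 in both of these libraries, and its part in their values was not tested.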

How the results depend on the processing

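Of 440 values of the 10 genes named by rule under alternatives other than leaving out 1 tumour, 392 kept their sign and side of the threshold, 11 passed it only there, and 37 had the other sign. The cause was not tested. The replicate block, fitted to the 19 tumours numbered 1 to 4, called 0 of the 39 genes in any comparison and so changed no call. It turned ATF4 to -0.040 (RMC-7977) and -0.084 (RMC-4550), DDIT3 to -0.019, -0.029 and -0.085 (RMC-7977, RMC-4550, Trametinib), ASNS to -0.30 (Trametinib), CEBPB to 0.086 (RMC-4550) and 0.14 (Cobimetinib), SLC3A2 to 0.28 (RMC-4550), SLC7A5 to 0.19 (RMC-7977), MARS to 0.038 (RMC-7977) and 0.14 (RMC-4550), and AARS to 0.027 (RMC-4550). The GC offset turned ATF4 to 0.21 and CEBPB to 0.044 with Trametinib, CEBPB to 0.14, SLC3A2 to 0.015 and MARS to 0.046 with RMC-4550, and SLC3A2 to -0.082 with Cobimetinib. The GC term turned DDIT3 to -0.22 and ASNS to -0.080 with Trametinib. The tumours with a GC correlation above 0 gave ATF4 0.017 with Trametinib (replicate 3 alone) and SLC3A2 0.096 with RMC-4550. DESeq2 and RLE scaling gave ATF4 -0.0019 with RMC-4550 and 0.010 with Trametinib, and SLC7A5 -0.0030 with RMC-4550. No filter gave ASNS -0.024, and the 2 groups alone gave ATF4 0.013, both with Trametinib. Without 2 libraries apart ATF4 was -0.073 (RMC-7977) and DDIT3 -0.10 (Trametinib). Without 4 libraries apart ATF4 was 0.13 (Trametinib), SLC3A2 0.094 (RMC-4550) and -0.029 (Cobimetinib), and AARS -0.0055 (Cobimetinib).

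Counts of called genes, 0 as reported, stayed at 0 in 97 of 130 counts. The shares of all genes called under these alternatives are not given beside the counts that follow. The counts therefore do not show whether these genes were called more often than other genes. DESeq2 called 1 with RMC-7977, 1 with Trametinib, 1 for RMC-7977 against Cobimetinib, 1 for Trametinib against Cobimetinib, 1 for the mean of the drugs and 5 for any difference among the groups, where no filter called 3. Without 2 libraries apart 1 was called with RMC-7977 and 1 for any difference. Without 4 libraries apart the counts were 2 (RMC-7977), 5 (Trametinib), 1 (Cobimetinib), 1 each for RMC-7977 against RMC-4550, Trametinib and Cobimetinib and for RMC-4550 against Cobimetinib, 4 (Trametinib against Cobimetinib), 3 (mean) and 8 (any difference). The newer quasi-likelihood method called 1 with RMC-7977 and 1 with Trametinib. The GC term called 1 with RMC-7977, 1 with Cobimetinib, 1 for RMC-7977 and 1 for RMC-4550 against Cobimetinib, and 1 for any difference. The tumours with a GC correlation above 0 gave 2 (RMC-7977), 2 (Cobimetinib), 1 (RMC-7977 against RMC-4550), 2 for RMC-7977 and 2 for RMC-4550 against Cobimetinib, 3 (mean) and 4 (any difference). Leaving out 1 tumour gave 0 to 1 with RMC-7977, 0 to 2 with Trametinib, 0 to 1 with Cobimetinib, 0 to 1 for RMC-7977 against Trametinib, 0 to 1 for RMC-4550 against Cobimetinib, 0 to 2 for Trametinib against Cobimetinib, 0 to 2 for any difference and 0 in the other 5 comparisons.

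Leaving out 1 tumour also turned the sign of values near 0. ATF4 ranged from -0.061 to 0.22 (RMC-7977), -0.071 to 0.18 (RMC-4550) and -0.094 to 0.15 (Trametinib), DDIT3 from -0.17 to 0.51 (RMC-4550) and -0.12 to 0.38 (Trametinib), and ASNS from -0.22 to 0.21 (Trametinib). CEBPB ranged from -0.18 to 0.079 (RMC-4550) and -0.19 to 0.086 (Cobimetinib), SLC3A2 from -0.28 to 0.13 (RMC-4550) and -0.18 to 0.18 (Cobimetinib), SLC7A5 from -0.31 to 0.30 (RMC-4550), MARS from -0.17 to 0.039 (RMC-4550) and -0.015 to 0.24 (Cobimetinib), and AARS from -0.28 to 0.024 (RMC-4550) and -0.17 to 0.20 (Cobimetinib). This spread was measured with 4 to 6 tumours a group. The 95% intervals reached 0.33 to 1.04 log2 units to each side of the estimates against Vehicle (median 0.51). Smaller differences were not detectable. The intervals are for 1 gene at a time, while calls were adjusted over all genes tested. Larger differences could therefore also go without a call, as with GDF15 under Trametinib (-1.73) and ASNS under Cobimetinib (1.01). CHAC1 and ASNS rest on 0 to 258 and 26 to 229 counts a library.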
